A study of Mus musculus with 6 samples.

Results

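The genes described here carry glucose into the cell, through glycolysis and the pentose phosphate pathway, and on to lactate or the mitochondrion. They are 37 named genes, chosen by name from a list with earlier results of these data known. All 37 are rows of the deposited count table, among its 14481 genes. All 37 also passed the filter on low counts, among 14319 genes tested.

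The 6 libraries hold polyadenylated RNA of wild-type mouse CD8+ T cells at day 3 of culture, with 3 libraries per group. Per the labels, sorted cells of both groups grew in RPMI with 10% fetal bovine serum on plates that carried bound anti-CD3 (1 µg/ml). The medium also contained IL-2 (0.1 µg/ml) and anti-CD28 (1 µg/ml). At day 1 they received conditioned medium (CM) taken from astrospheres that were pSTAT3- in one group and pSTAT3+ in the other, and RNA was taken 2 days later. STAT3 is a transcription factor, and pSTAT3 stands for it in its phosphorylated state. The groups are called STAT3- CM and STAT3+ CM. Cells that received no CM were not analysed here. The labels do not say that the 3 libraries of a group came from separate mice or cultures, so the spread behind each p-value may be technical. They also do not say how much glucose or lactate the media contained.

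Glycolysis splits glucose into pyruvate, and activated T cells are known for turning much of that pyruvate into lactate even when oxygen is present. Lactate leaves the cell with a proton through monocarboxylate transporters. The pentose phosphate pathway branches off after the first phosphorylation of glucose and yields NADPH and the ribose of nucleotides. Pyruvate dehydrogenase kinases close the gate through which pyruvate enters the mitochondrion. Many genes of these steps are textbook targets of the oxygen-sensing factor HIF-1 and of Myc.

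Promoters of 5 genes are shown first, because the first 4 had the smallest p-values in the comparison of media and Ldha was the most abundant transcript. Each is 300 bases from RefSeq, build GRCm38.p6, running from 250 bases before to 50 after an annotated transcription start. Capitals mark ACGTG or GCGTG, the core to which HIF-1 binds, on either strand, and also CACGTG, the E-box to which Myc binds, which itself contains ACGTG.
Slc16a3, chr11:120948817-120949116, plus strand: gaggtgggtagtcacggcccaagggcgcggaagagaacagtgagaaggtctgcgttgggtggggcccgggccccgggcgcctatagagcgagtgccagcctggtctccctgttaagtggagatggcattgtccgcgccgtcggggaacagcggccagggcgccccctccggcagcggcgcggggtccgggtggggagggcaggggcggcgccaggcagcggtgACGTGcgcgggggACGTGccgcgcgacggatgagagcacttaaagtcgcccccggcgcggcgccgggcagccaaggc
Eno3, chr11:70656926-70657225, plus strand: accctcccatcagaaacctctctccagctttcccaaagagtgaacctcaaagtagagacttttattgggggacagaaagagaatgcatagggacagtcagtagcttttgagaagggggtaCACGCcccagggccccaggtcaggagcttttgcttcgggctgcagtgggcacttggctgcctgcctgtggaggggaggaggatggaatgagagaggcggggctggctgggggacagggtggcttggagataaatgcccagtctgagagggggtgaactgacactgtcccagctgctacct
Galk1, chr11:116012670-116012969, minus strand: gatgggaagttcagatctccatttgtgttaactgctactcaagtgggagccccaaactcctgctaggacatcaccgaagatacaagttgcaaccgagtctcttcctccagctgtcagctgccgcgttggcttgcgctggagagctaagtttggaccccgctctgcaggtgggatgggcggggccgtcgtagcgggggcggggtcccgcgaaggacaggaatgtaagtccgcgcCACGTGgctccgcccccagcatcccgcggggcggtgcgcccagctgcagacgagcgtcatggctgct
Pdk1, chr2:71872974-71873273, plus strand: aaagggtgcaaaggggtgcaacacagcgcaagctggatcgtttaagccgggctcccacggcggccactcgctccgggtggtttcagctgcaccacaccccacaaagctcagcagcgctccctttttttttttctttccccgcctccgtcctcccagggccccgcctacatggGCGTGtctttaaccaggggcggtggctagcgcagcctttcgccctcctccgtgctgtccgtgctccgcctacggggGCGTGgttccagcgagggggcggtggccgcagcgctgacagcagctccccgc
Ldha, chr7:46845554-46845853, plus strand: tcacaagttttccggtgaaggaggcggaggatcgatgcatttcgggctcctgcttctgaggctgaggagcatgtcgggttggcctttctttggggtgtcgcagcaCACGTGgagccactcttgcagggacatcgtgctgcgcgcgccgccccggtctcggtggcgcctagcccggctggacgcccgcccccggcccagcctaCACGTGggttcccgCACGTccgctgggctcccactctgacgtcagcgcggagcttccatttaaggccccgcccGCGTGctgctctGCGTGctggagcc

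The Slc16a3 window held ACGTG 2 times, both shortly before the start. The Eno3 window held 1 GCGTG core, read on the other strand, and the Pdk1 window held 2. The capitals in the Galk1 window are 1 E-box. The Ldha window held 2 E-boxes, a further ACGTG core on the other strand and 2 GCGTG cores. Pdk1 and Ldha each have 2 windows in the RefSeq table, of which 1 is shown. RefSeq windows were found for 36 of the 37 genes, 51 windows in all, and none for Slc2a3. ACGTG or GCGTG stood in 40 of the 51 (78.4%), against 61.2% of 13061 windows of tested genes and 43.8% of all 32851 windows of this length. The E-box stood in 6 of the 51 (11.8%), against 9.85% and 7.15%. A match is only a match of letters, and binding was not measured.

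Total counts ran from 43346089 to 53630514 per library, and the 37 genes took 1.31% to 1.63% of them. Levels below are in CPM, the read count scaled to library size, with library sizes corrected by TMM factors. All 7 CD8 T cell markers were present, with a summed level of 2402 to 2631 CPM with STAT3- CM and 2424 to 3158 with STAT3+ CM. None of 8 red cell precursor or 6 neutrophil markers was in the table, and of 8 astrocyte markers 3 were, at 15.4 to 18.7 and 9.85 to 19.4 CPM. The 5 CD4 T cell markers (Cd4, Zbtb7b, Foxp3, Cd40lg and Ctla4) summed to 57.8 to 330 CPM with STAT3- CM and 122 to 283 with STAT3+ CM. The 2 of 7 B cell markers present (Cd79b and Ighm) summed to 279 to 327 and 308 to 348. The 7 NK cell markers summed to 7.06 to 44.9 and 7.55 to 15.0 CPM. The 5 of 10 macrophage or monocyte markers present summed to 93.5 to 149 and 109 to 204, while Csf1r, C1qa, C1qb, Fcgr1 and Mrc1 were not in the table. The 7 of 11 dendritic cell markers present summed to 132 to 185 CPM with STAT3- CM and 95.3 to 120 with STAT3+ CM, without overlap, while Flt3, Clec9a, Xcr1 and Siglech were not in the table. Of single genes, 7.95% did not overlap between the groups. By the edgeR test described below, 4 of these 7 markers had an unadjusted p under 0.05, beside 3.64% of all genes. In each other marker list that count was 0. Such sums do not show which cells the transcripts came from, and whether cells other than CD8 T cells were present was not tested. Neither was the part of any such cells in the results below. In bulk RNA, fewer cells of a type and less RNA per cell cannot be told apart. On the first principal component of all genes, STAT3- CM replicate 3 (39.6) and STAT3+ CM replicate 1 (16.3) lay farthest to one side. On the second, STAT3+ CM replicates 1 (-38.1) and 2 (-19.2) lay apart from the other 4 libraries.

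The transcripts of the pathway were abundant in both media. Per kilobase of transcript, Ldha, the lactate dehydrogenase subunit that favours lactate, ranked 62 among 11857 genes with a known length, at 1534 ± 292 CPM per kb with STAT3- CM and 1763 ± 269 with STAT3+ CM (SD, n = 3 per group). Pkm, pyruvate kinase, ranked 100, at 970 ± 163 and 1026 ± 108 CPM per kb. Aldoa, Eno1, Pgk1, Tpi1 and Gapdh followed at ranks 122 to 151, then Pgam1 at 225 and Gpi1 at 400. Of the 37 genes, 16 stood in the highest 10% by CPM per kb. Tkt (rank 470) and Taldo1 (rank 637) led the pentose phosphate genes, and Pfkp (rank 893) led the phosphofructokinases. Lowest were Aldoc (3.20 CPM per kb over all libraries) and Pdk2 (1.66). Several abundant members have near copies in the genome, among them processed pseudogenes, that can draw reads. Only 1 copy each of Eno1 and Gpi1 was examined, and none of Gapdh, Ldha, Pgk1 or the other members. Eno1b held 0.0247% of the counts of Eno1 and Eno1b together and Gpi-ps 0.0822% of those of Gpi1 and Gpi-ps.

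**Figure D1:**
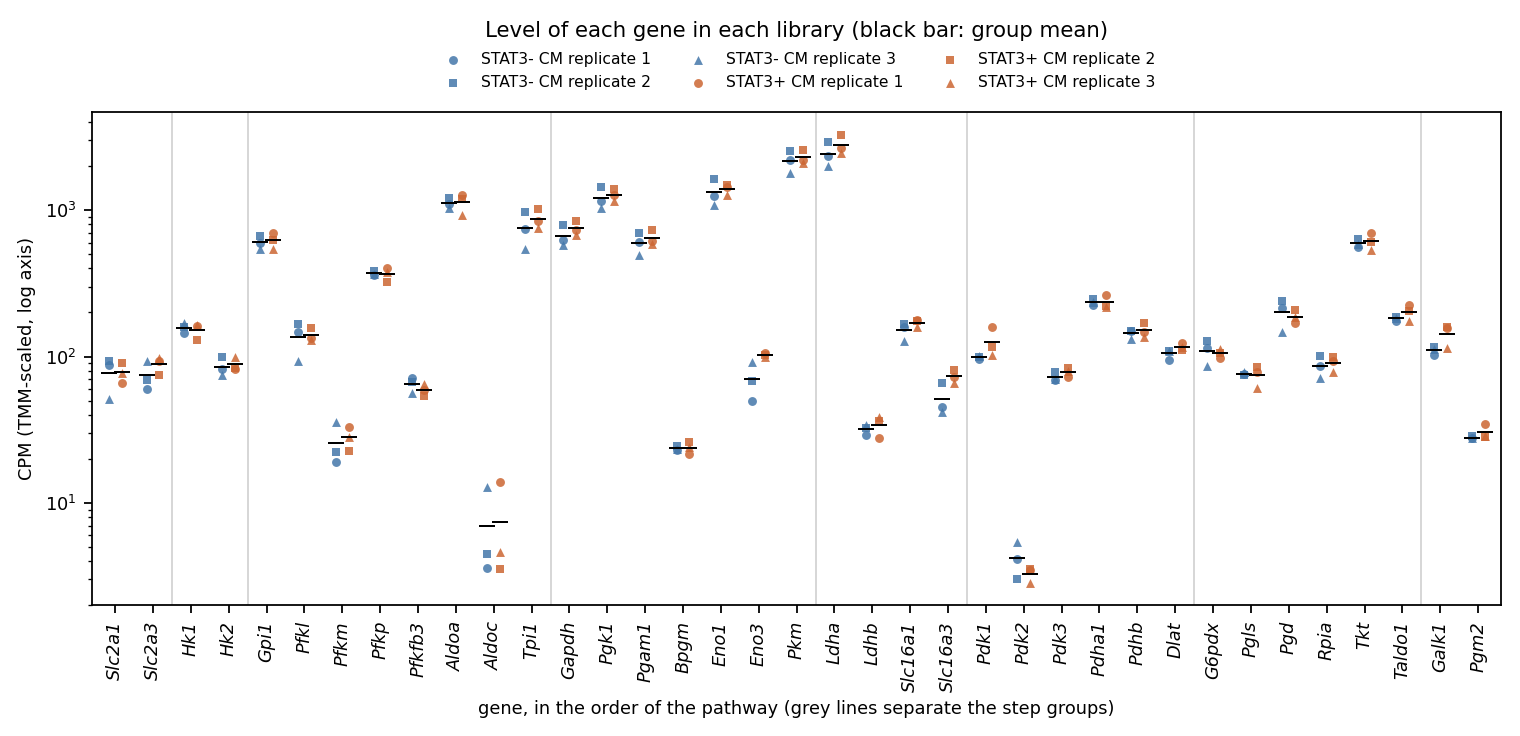
CPM (vertical, log axis) of each of the 37 genes (horizontal) in the 6 libraries, blue for STAT3- CM and orange for STAT3+ CM, with the marker shape giving the replicate and a black bar the mean of 3 libraries. The groups overlap in all genes but Eno3, Pdk1 and Dlat, and group means with STAT3- CM reach from 4.17 CPM for Pdk2 to 2436 for Ldha.

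The comparison of the design asks how the medium of pSTAT3+ astrospheres differs in its effect from that of pSTAT3- astrospheres. In these genes no difference passed the test. By the quasi-likelihood test of edgeR, adjusted over all genes after Benjamini and Hochberg, 0 of 37 had an adjusted p under 0.05, where percent called over all genes was 0. DESeq2, which called 0.345% of its genes, and limma-voom also called 0 of the 37. At an unadjusted p under 0.05 DESeq2 had 3 of the 37, beside 3.65% of all genes. By edgeR 3 of 37 stood at an unadjusted p under 0.05, Slc16a3, Eno3 and Galk1, all higher with STAT3+ CM, against 3.64% of all genes (1.34% higher and 2.3% lower). That count was 0 without STAT3- CM replicate 1 (beside 2.36% of all genes), 2 without replicate 2 (3.22%) and 5 without replicate 3 (6.51%). It was 2 without STAT3+ CM replicate 1 (3.66%), 1 (Eno3) without replicate 2 (2.03%) and 4 without replicate 3 (9.45%). Without both libraries that lay to one side on the first component the count was 2 (Eno3 and Slc2a3), beside 7% of all genes. The share over all genes thus moved too, though not always in step with the count. Without that pair of libraries the log2 fold changes were 0.40 for Slc16a3, 0.78 for Eno3, 0.32 for Galk1 and 0.15 for Pdk1, beside 0.52, 0.55, 0.37 and 0.35 with all libraries. The groups did not overlap in 3 of 37, Eno3, Pdk1 and Dlat, all higher with STAT3+ CM, against 7.95% of all genes, 3.78% higher and 4.18% lower.

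The differences were small and their intervals narrow for most of these genes. The 95% interval of the log2 fold change (STAT3+ CM minus STAT3- CM) lay within 2-fold for 36 of 37 genes, Aldoc being the exception, against 79.2% of all genes. It lay within 1.5-fold for 27 of 37, against 53.5% of all genes. The median log2 fold change was 0.08, with 29 positive and 8 negative, beside 0.00 and 50.2% positive over all genes. With scaling by library totals alone the median was 0.03 and 23 were positive, and with upper-quartile factors 31 were. Without STAT3- CM replicate 3 the median was 0.0091 and 20 were positive.

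**Figure D2:**
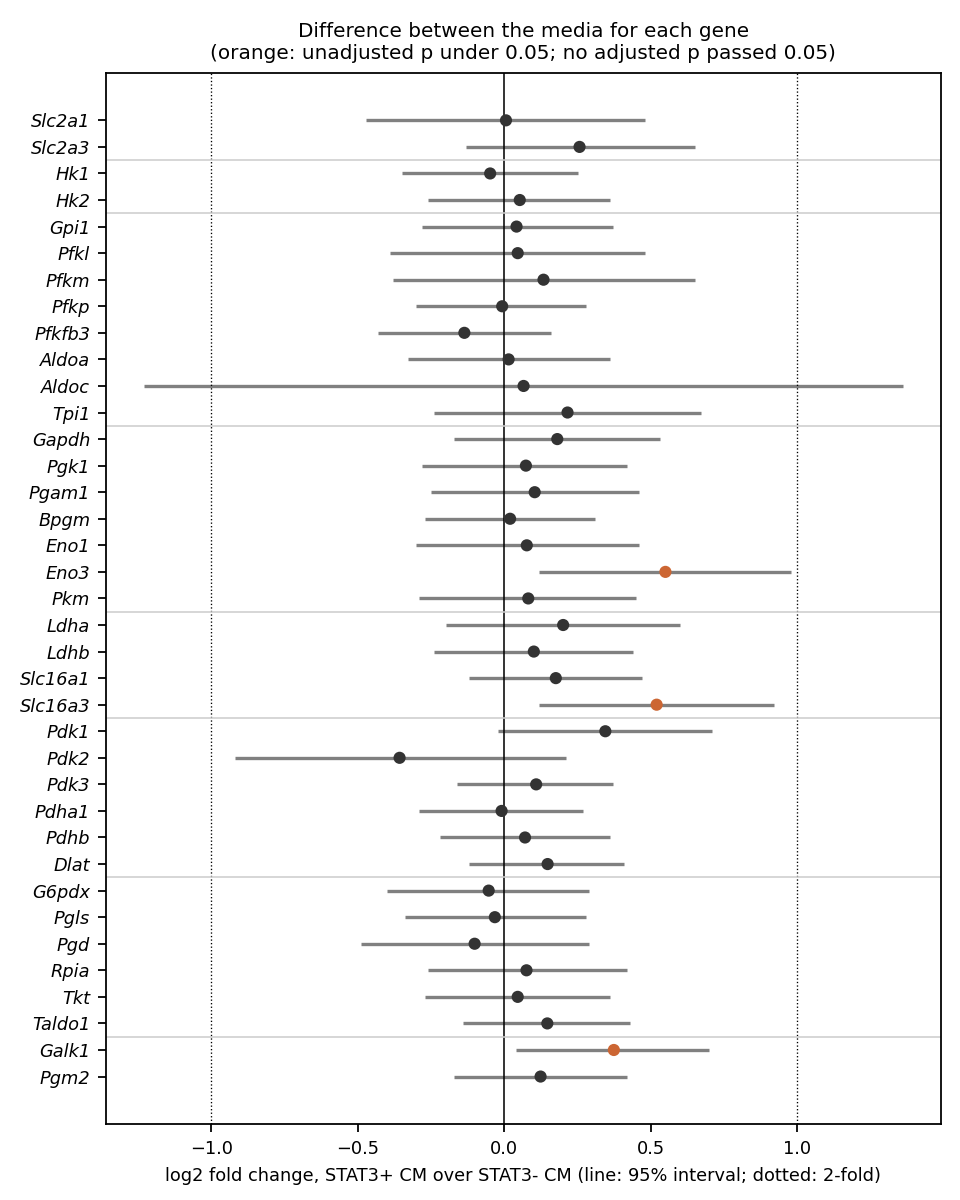
Log2 fold change of STAT3+ CM over STAT3- CM (horizontal) for each of the 37 genes (vertical), with the point as edgeR's estimate and the line as its 95% interval. Slc16a3, Eno3 and Galk1, in orange, have intervals above 0, and the widest interval is that of Aldoc (-1.23 to 1.36).

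Glucose enters T cells through GLUT1, encoded by Slc2a1, and GLUT3, encoded by Slc2a3. Slc2a1 stood at 87.5, 93.8 and 51.1 CPM with STAT3- CM and at 66.1, 89.7 and 77.6 with STAT3+ CM (replicates 1 to 3, as in all such sentences). Slc2a3 stood at 60.1, 69.1 and 93.7 CPM with STAT3- CM and at 93.8, 75.1 and 97.4 with STAT3+ CM. The groups overlapped in both genes, and the libraries with the least Slc2a1, STAT3- CM replicate 3 and STAT3+ CM replicate 1, were among the 3 with the most Slc2a3. The log2 fold change of Slc2a1 was 0.01 (SE 0.21, 95% interval -0.47 to 0.48) and that of Slc2a3 0.26 (SE 0.18, -0.13 to 0.65, edgeR adjusted p = 0.989). The value for Slc2a3 was 0.13 without STAT3- CM replicate 1 and 0.46 without STAT3- CM replicate 3. Per kilobase, Slc2a1 made up 55.3% ± 13.5 of the pair with STAT3- CM and 51.5% ± 6.84 with STAT3+ CM, and it ranged from 39.8% to 63.9% within STAT3- CM alone.

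The hexokinases phosphorylate glucose and so trap it in the cell. Hk1 stood at 144, 159 and 169 CPM with STAT3- CM and at 162, 129 and 165 with STAT3+ CM. Hk2, the form known to be induced on activation of T cells, stood at 81.7, 98.7 and 74.8 CPM and at 82.5, 83.8 and 98.5. Neither gene separated the groups, with log2 fold changes of -0.05 (SE 0.14) for Hk1 and 0.05 (SE 0.14) for Hk2, and intervals that stayed within 1.5-fold. Hk1 made up 67.2% ± 3.86 of the CPM per kb of the pair with STAT3- CM and 65.6% ± 2.79 with STAT3+ CM.

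Upper glycolysis turns glucose phosphate into triose phosphates, and its pace is set by phosphofructokinase. Pfkp, the platelet form, made up 70.6% ± 3.01 and 69.3% ± 3.55 of the CPM per kb of the 3 phosphofructokinase genes, with STAT3- CM and STAT3+ CM. Pfkl, the liver form, made up 23.5% ± 5.32 and 24.4% ± 4.29, and Pfkm, the muscle form, 5.99% ± 2.35 and 6.38% ± 0.777. Pfkl stood at 147, 166 and 93.7 CPM with STAT3- CM and at 133, 158 and 130 with STAT3+ CM. Pfkm stood at 19.1, 22.2 and 35.5 CPM and at 33.2, 22.6 and 28.4. STAT3- CM replicate 3 thus had the lowest Pfkl and the highest Pfkm of all 6 libraries. Pfkfb3, whose product makes the strongest activator of phosphofructokinase, was 1 of the 2 genes of this step with a negative log2 fold change, at -0.14 (SE 0.13, 95% interval -0.43 to 0.16), beside Pfkp at -0.01.

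Aldolase splits the sugar, and triose phosphate isomerase interconverts the products. Aldoa stood at 1104, 1215 and 1035 CPM with STAT3- CM and at 1271, 1195 and 923 with STAT3+ CM, with a log2 fold change of 0.02 (SE 0.16). Its relative Aldoc, known as an astrocyte isoform, stood at 3.60, 4.47 and 12.9 CPM with STAT3- CM and at 13.9, 3.56 and 4.62 with STAT3+ CM. In each group 1 library stood far above the others, STAT3- CM replicate 3 and STAT3+ CM replicate 1, and the fold between group means was 1.05. Of the astrocyte markers Gfap, Aqp4, Slc1a3, S100b and Sox9 were not in the table. The sum of the 3 present was 15.4 CPM in STAT3- CM replicate 3 and 9.85 in STAT3+ CM replicate 1, against 13.2 to 19.4 in the others. The summed CD4 T cell markers were highest in these same 2 libraries, at 330 CPM in STAT3- CM replicate 3 and 283 in STAT3+ CM replicate 1, against 57.8 to 156 in the other 4. Which of these markers made up the sum, and in which cells, was not examined. The part of CD4 T cells in the levels of Aldoc, Pfkm, Slc2a3 and Slc2a1 was not tested. Tpi1 stood at 741, 966 and 544 CPM with STAT3- CM and at 849, 1011 and 755 with STAT3+ CM (log2 fold change 0.22, SE 0.21, edgeR adjusted p = 0.989), and the fold change was 0.030 without STAT3- CM replicate 3 and 0.44 without STAT3- CM replicate 2. Gpi1, the isomerase before phosphofructokinase, ran from 541 to 671 and from 541 to 698 CPM.

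Lower glycolysis harvests ATP and NADH and ends in pyruvate. Eno3, the muscle form of enolase, stood at 49.5, 68.4 and 91.9 CPM with STAT3- CM and at 105, 103 and 99.5 with STAT3+ CM. All 3 STAT3+ CM libraries lay above all 3 STAT3- CM libraries, and the STAT3- CM libraries spread over 1.86-fold. The log2 fold change was 0.55 (SE 0.19, 95% interval 0.12 to 0.98), with an adjusted p of 0.989 by edgeR and 0.631 by DESeq2. It was 0.35 without STAT3- CM replicate 1. Eno1, the main enolase, stood at 1258, 1628 and 1085 CPM and at 1432, 1492 and 1263, with overlapping groups and a log2 fold change of 0.08 (SE 0.17). Eno3 therefore made up 5.03%, 5.35% and 10.2% of the CPM per kb of the pair with STAT3- CM and 8.98%, 8.47% and 9.58% with STAT3+ CM. The shares overlapped, because STAT3- CM replicate 3 had the highest of all.

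Pkm stood at 2190, 2523 and 1792 CPM with STAT3- CM and at 2215, 2567 and 2103 with STAT3+ CM, a log2 fold change of 0.08 (SE 0.17, 95% interval -0.29 to 0.45). Gapdh, Pgk1 and Pgam1, the steps between aldolase and enolase, had log2 fold changes of 0.18, 0.07 and 0.10 with SE of 0.16 each. The lowest level of Gapdh, Pgk1, Pgam1, Eno1 and Pkm was in STAT3- CM replicate 3 in each case. Bpgm, the mutase known for tuning haemoglobin in red cells, stood between 21.7 and 25.8 CPM in all 6 libraries, with no red cell marker in the table.

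At the end of the pathway, lactate dehydrogenase makes lactate and the transporters MCT1 and MCT4 carry it across the membrane. Ldha stood at 2360, 2933 and 2015 CPM with STAT3- CM and at 2667, 3277 and 2456 with STAT3+ CM. The groups overlapped, and the log2 fold change was 0.20 (SE 0.18, 95% interval -0.20 to 0.60). It was 0.073 without STAT3+ CM replicate 2 and 0.35 without STAT3- CM replicate 2. Ldhb, the subunit that favours the reverse reaction, stood at 29.2, 32.3 and 34.2 CPM and at 27.6, 36.3 and 38.6. Ldha made up 98.4% ± 0.369 of the CPM per kb of the pair with STAT3- CM and 98.5% ± 0.344 with STAT3+ CM.

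Slc16a3 encodes MCT4, known as the lactate exporter of highly glycolytic cells, and it had the smallest p of the 37 genes. It stood at 45.3, 66.4 and 41.5 CPM with STAT3- CM and at 72.8, 80.7 and 66.3 with STAT3+ CM. Only STAT3- CM replicate 2 reached the range of STAT3+ CM, just above STAT3+ CM replicate 3. The log2 fold change was 0.52 (SE 0.18, 95% interval 0.12 to 0.92), with an adjusted p of 0.989 by edgeR and 0.636 by DESeq2. Slc16a1, which encodes MCT1, stood at 159, 166 and 128 CPM and at 177, 175 and 159, with a log2 fold change of 0.18 (SE 0.13, -0.12 to 0.47). Slc16a3 made up 34.6%, 42.5% and 37.7% of the CPM per kb of these 2 transporters with STAT3- CM and 43.2%, 46.1% and 43.6% with STAT3+ CM. Here the shares did not overlap, although the smallest distance between the groups, 42.5% against 43.2%, was far below the spread within STAT3- CM. In the other isozyme families examined the shares overlapped. This share is computed from Slc16a3 itself, which was singled out by its p, so it is not a separate result. The summed level of the 4 lactate genes was 2670 ± 494 CPM with STAT3- CM and 3078 ± 440 with STAT3+ CM.

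**Figure D3:**
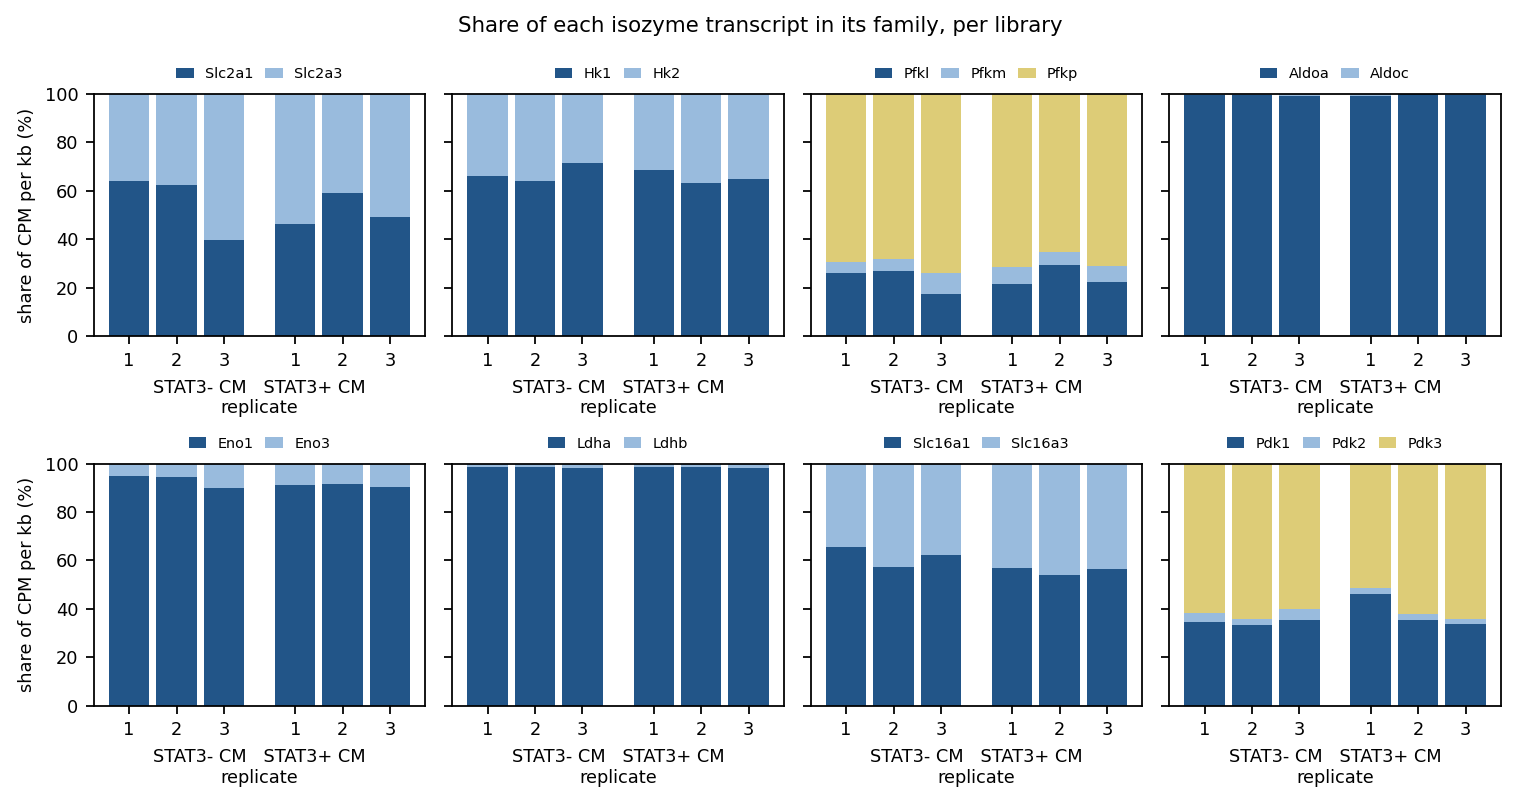
Share of each isozyme in its family's CPM per kb (vertical, 0 to 100%) for 8 families, 1 bar per library and 3 bars per medium. Aldoa and Ldha fill nearly the whole of their bars, Slc2a1 ranges from 39.8% to 63.9% within STAT3- CM, and the Slc16a3 share is 43.2% to 46.1% with STAT3+ CM.

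Pyruvate dehydrogenase feeds pyruvate to the mitochondrion, and the kinases Pdk1, Pdk2 and Pdk3 switch it off by phosphorylation. Pdk1 stood at 96.1, 99.8 and 101.3 CPM with STAT3- CM and at 159.9, 116 and 101.7 with STAT3+ CM. The groups did not overlap, but STAT3+ CM replicate 3 lay almost level with STAT3- CM replicate 3, and replicate 1 alone stood far above the rest. The log2 fold change was 0.35 (SE 0.16, 95% interval -0.02 to 0.71, edgeR adjusted p = 0.989), and without STAT3+ CM replicate 1 it was 0.14. Pdk3 stood at 69.6, 78.4 and 69.9 CPM and at 72.5, 83.3 and 79.2, with a log2 fold change of 0.11 (SE 0.12). Pdk2, the scarcest of the 37 per kilobase, stood at 4.13, 3.02 and 5.37 CPM and at 3.48, 3.51 and 2.84, with the most negative log2 fold change of the set, -0.36 (SE 0.26, 95% interval -0.92 to 0.21). Per kilobase Pdk3 made up 62.1% ± 2.11 and 59.3% ± 6.87 of the 3 kinases and Pdk1 34.6% ± 1.10 and 38.4% ± 6.85.

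The subunits of the dehydrogenase itself differed little. Dlat, its acetyltransferase core, stood at 95.3, 109.9 and 109.7 CPM with STAT3- CM and at 122.9, 110.2 and 115.8 with STAT3+ CM. The groups lay side by side without overlap, and the log2 fold change was 0.15 (SE 0.12, 95% interval -0.12 to 0.41). Pdhb stood at 150.0, 150.0 and 131 CPM and at 147, 169 and 136, and Pdha1 ran from 224 to 247 and from 218 to 263 CPM. Their log2 fold changes were 0.07 (SE 0.13) and -0.01 (SE 0.13).

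The pentose phosphate genes were centred on 0, with 3 positive and 3 negative log2 fold changes and all 6 intervals within 1.5-fold. G6pdx, the committed and NADPH-making step, had -0.05 (SE 0.16), Pgls, the lactonase after it, -0.03 (SE 0.14), and Pgd, the second NADPH-making step, -0.10 (SE 0.18). In the branch that makes and reshuffles sugar phosphates, Rpia had 0.08 (SE 0.15). Tkt, transketolase, stood at 556, 640 and 588 CPM with STAT3- CM and at 704, 603 and 535 with STAT3+ CM (log2 fold change 0.05, SE 0.14). Taldo1, transaldolase, stood at 175, 187 and 184 CPM and at 225, 205 and 176 (log2 fold change 0.15, SE 0.13). In both of these genes STAT3+ CM held the highest library, in Tkt it also held the lowest, and the groups overlapped. The summed level of the 6 genes was 1249 ± 109 and 1274 ± 114 CPM.

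Galk1 phosphorylates galactose for entry into glycolysis. It stood at 103, 116 and 113 CPM with STAT3- CM and at 157.6, 158.4 and 114 with STAT3+ CM. Replicates 1 and 2 of STAT3+ CM stood well above the other 4 libraries, while replicate 3 lay inside the range of STAT3- CM. These 2 libraries are also those set apart on the second principal component, whose part in this result was not tested. The log2 fold change was 0.37 (SE 0.15, 95% interval 0.04 to 0.70), with an adjusted p of 0.989 by edgeR. Pgm2, a phosphoglucomutase, ran from 27.6 to 28.4 and from 28.1 to 34.5 CPM, with a log2 fold change of 0.12 (SE 0.13). Mouse Pgm1 and Pgm2 have exchanged symbols in the past, and RefSeq lists each as a synonym of the other, so which of the pair this row counts depends on the authors' annotation.

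Libraries of the same group also differed among themselves. In 37 of 37 genes the fold between group means was smaller than the larger of the 2 folds between the highest and lowest library of a group, as it was in 96.6% of all genes. A range between extreme libraries is set against means there, so the count says little about these genes. STAT3- CM replicate 3 had the lowest level of 18 of the 37 genes (48.6%), against 24.8% of all genes. These 18 included Slc2a1, Hk2, Pfkl, Tpi1, Gapdh, Pkm, Ldha, G6pdx and both monocarboxylate transporters. The same library had the highest level of Hk1, Pfkm and Pdk2. STAT3+ CM replicates 1 and 2 held the highest level of 12 and 11 genes, or 32.4% and 29.7%, against 19.2% and 19.6% of all genes. STAT3- CM replicate 2 held the highest level of 8, among them Slc2a1, Pgk1 and Eno1, and the lowest of 0. The summed CPM of the 37 genes was 13910, 16470 and 12350 with STAT3- CM and 15540, 16680 and 13830 with STAT3+ CM, so STAT3- CM replicate 2 lay beside the highest STAT3+ CM library.

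**Figure D4:**
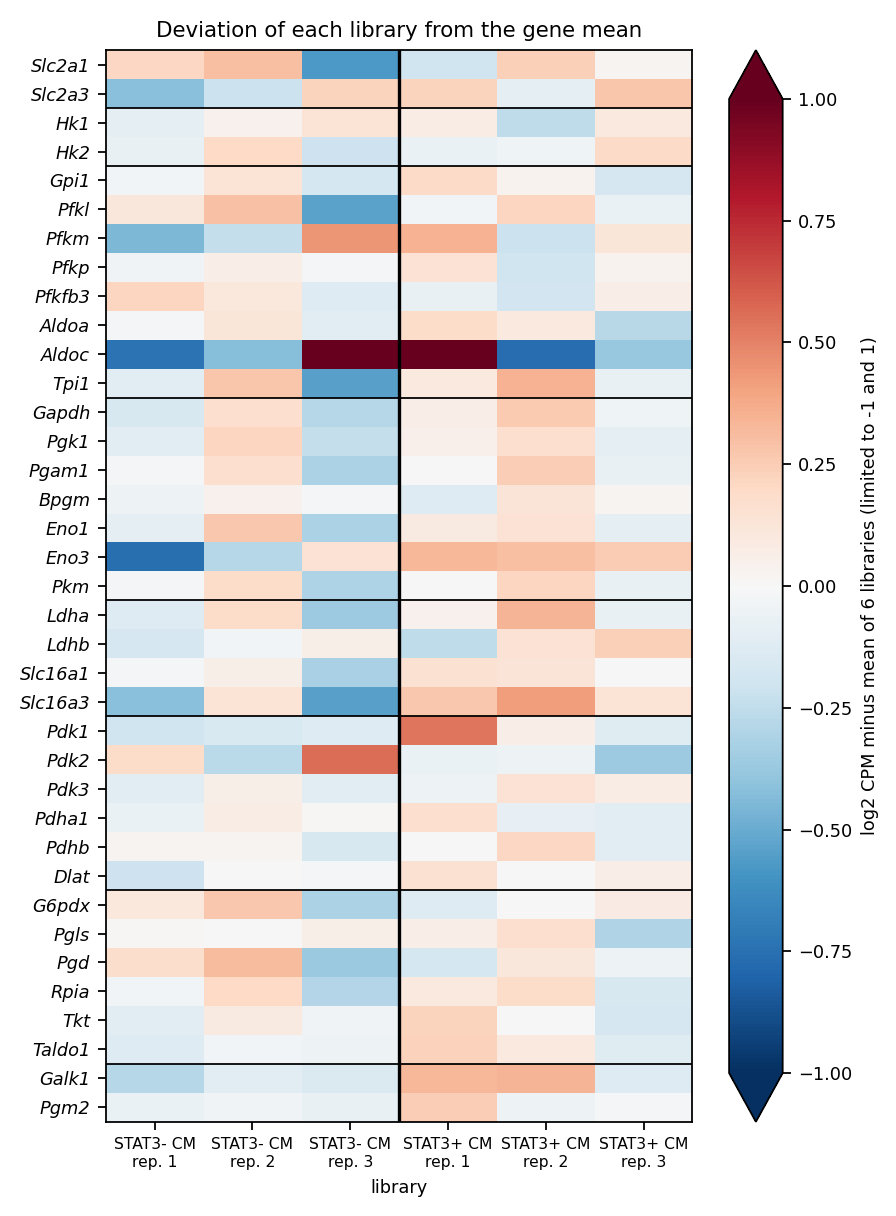
Log2 CPM of each library (columns) minus the mean of the 6 libraries for each of the 37 genes (rows), red above and blue below the mean, with colours limited to -1 and 1. The column of STAT3- CM replicate 3 is blue for most steps from Tpi1 to Slc16a3 but red for Slc2a3, Pfkm, Aldoc and Eno3, and Aldoc is deep red there and in STAT3+ CM replicate 1.

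Other genes of these pathways, from 6 lists of 100 names of which 79 could be tested, had no member past the threshold by edgeR (0 of 79). These lists too were chosen with earlier results of these data known. At an unadjusted p under 0.05 stood 2 higher and 3 lower with STAT3+ CM, against 1.34% and 2.3% of all genes, and 43 of 79 had positive values with a median of 0.02. The groups did not overlap in 3 higher and 3 lower of the 79, against 3.78% and 4.18% of all genes. That is near the share over all genes, so a lack of overlap named below says little about the gene. Among 17 other isozymes and regulators of glycolysis, the smallest p-values were on the lower side. Pcx, the carboxylase that turns pyruvate into oxaloacetate, stood at 8.57, 9.52 and 9.07 CPM with STAT3- CM and at 7.40, 5.19 and 4.93 with STAT3+ CM. The groups did not overlap, and the log2 fold change was -0.64 (SE 0.20, edgeR adjusted p = 0.989). Gpd1, a cytosolic glycerol phosphate dehydrogenase near the floor of the table at 0.574 ± 0.428 and 0.202 ± 0.0422 CPM, had -1.48 (SE 0.60), and Pck2, a mitochondrial maker of phosphoenolpyruvate, -0.28 (SE 0.14).

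Among 10 other sugar and monocarboxylate carriers, 6 had positive values. Slc2a6, another glucose transporter family member, had -0.34 (SE 0.19), Slc16a6, of the monocarboxylate carrier family, 0.18 (SE 0.12), and Emb, a partner protein of these carriers, 0.21 (SE 0.15). Of 5 other pyruvate dehydrogenase genes 2 had positive values, and none was at an unadjusted p under 0.05. Pdpr, a regulatory subunit of the phosphatase that reopens the gate, stood at 24.7, 24.2 and 26.1 CPM and at 20.1, 10.1 and 22.8 (log2 fold change -0.50, SE 0.25). Its catalytic partner Pdp1 had -0.26 (SE 0.18) and Dld, the dehydrogenase's lipoamide-oxidising subunit, 0.07 (SE 0.12). Pdpr did not overlap between the groups, and its lowest value belonged to STAT3+ CM replicate 2.

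Of 11 other pentose phosphate and ribose genes 10 had positive values, with a median of 0.08 and none at an unadjusted p under 0.05. The ribokinase Rbks had 0.42 (SE 0.26), Prps2, which makes the ribose donor of nucleotides, 0.19 (SE 0.15), and Pgm1 0.12 (SE 0.14). Of 15 galactose and glycogen genes 7 had positive values, led by p by the glycogen phosphorylase Pygm (0.55, SE 0.43), the glycogen synthase kinase Gsk3b (-0.11, SE 0.13) and glycogenin, Gyg (0.16, SE 0.18).

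The factors and sensors known to set the level of these genes had values on both sides of 0, with 10 of 21 values positive and 0 past the threshold by edgeR. Egln3, a prolyl hydroxylase that marks HIF for destruction and is itself a known HIF target, stood at 9.43, 16.9 and 17.0 CPM with STAT3- CM and at 31.1, 25.3 and 22.5 with STAT3+ CM. The groups did not overlap, and the log2 fold change was 0.86 (SE 0.23, 95% interval 0.36 to 1.37, edgeR adjusted p = 0.708). Hif1a stood at 247, 300.0 and 405 CPM and at 493, 275 and 344, with a log2 fold change of 0.23 (SE 0.23). Its 2 highest libraries, STAT3+ CM replicate 1 and STAT3- CM replicate 3, were also the 2 highest for Aldoc and Pfkm. Yet STAT3- CM replicate 3 had the lowest level of 18 of the 37 genes, among them Slc2a1, Pgk1, Eno1, Ldha and Slc16a3. STAT3+ CM replicate 1 had the highest level of 12 and the lowest of 2. A link between Hif1a and the level of any of these genes was not tested. Arrdc4, an arrestin that restrains glucose uptake, stood at 2.27, 1.70 and 1.91 CPM and at 5.33, 3.84 and 2.62 (log2 fold change 0.99, SE 0.30, edgeR adjusted p = 0.973). Its better known relative Txnip stood at 77.6, 66.7 and 66.2 CPM and at 123, 77.0 and 58.9, with overlapping groups and 0.30 (SE 0.23). Myc stood at 283, 295 and 307 CPM and at 338, 344 and 344, without overlap and with 0.21 (SE 0.11, 95% interval -0.04 to 0.47, edgeR adjusted p = 0.989). Mycn, at 1.21 ± 0.763 and 0.439 ± 0.116 CPM, had -1.46 (SE 0.50).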

How the data were processed

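Polyadenylated RNA of 6 libraries was counted by the authors. Their deposited counts are whole numbers of reads per gene and were not normalized. GRCm39 was the genome build, and Cufflinks 2.2.1, SAMtools 0.1.19, TopHat2 2.0.10 with Bowtie 1.0.0, and FastQC are the tools listed, per the submitters' processing notes. For the counting program, its annotation, its strand setting and the filter behind the lowest gene total of 40 the answer is the same: not given in the sources used here. Pseudogenes and overlapping genes are therefore less certain.

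Counts were filtered by filterByExpr, which left out 162 genes, scaled by TMM (factors 0.9605 to 1.06) and compared with the robust quasi-likelihood F test on all 6 libraries, using edgeR 4.0.16 under R 4.3.3. Two-sided p-values received the Benjamini-Hochberg adjustment across all tested genes, and 0.05 was the threshold. An SE was obtained by dividing the size of the log2 fold change by the square root of its F. The principal components used log2 CPM with a prior count of 2. Alternatives used DESeq2 1.42.0, limma 3.58.1, other scalings, the replicate number as a block and libraries left out. The workflow was also run on simulated data in which genes varied independently of each other. No result given here rests on that run. Length is the median of a gene's protein-coding transcripts in GENCODE M21 (GRCm38), matched by symbol for 11857 of 14319 genes. The members and lists were chosen with earlier results of these data known. Library values are given for the genes first by p or by CPM per kb in each step, the 8 smallest p-values and their isozymes, and for Hif1a, Myc and Txnip. Of each other list the 3 genes with the smallest p-values are named, some with library values and the rest with the log2 fold change and its SE. Pdk1, Dlat and other genes without overlap were also singled out after their values were seen.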

Additional observations from a re-analysis of the deposited data

How the results depend on the processing

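No gene of the set was called under any of 18 alternatives by edgeR, DESeq2 or limma-voom, so the count of 0 did not move. Over all genes the count of calls was 0 with edgeR, 48 with DESeq2, 14 with limma-voom and sample quality weights, 10 without both STAT3- CM replicate 3 and STAT3+ CM replicate 1, and 0 to 18 with single libraries left out, of which 18 without STAT3- CM replicate 3 and 1 without STAT3- CM replicate 1. The median log2 fold change of the 37 genes ran from 0.00909 to 0.164 with single libraries left out.

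Among 666 estimates of single genes under alternatives 58 changed sign, 36 of them with 1 library left out, and 16 of 37 genes kept their sign throughout. Signs changed with upper-quartile factors for Pfkp (0.0021) and Pdha1 (0.00023). They changed with library totals only for Slc2a1 (-0.027), Gpi1 (-0.0026), Aldoa (-0.032), Aldoc (-0.0033), Bpgm (-0.023) and Tkt (-0.0012). With sample quality weights they changed for Slc2a1 (-0.13), Hk2 (-0.0099), Gpi1 (-0.015), Pfkl (-0.077) and Aldoa (-0.025). With libraries left out, 1 at a time or that pair at once, the values of the genes that changed sign ran from -0.037 to 0.44 for Pfkm, from -0.76 to 0.86 for Aldoc, from -0.039 to 0.084 for Bpgm, from -0.092 to 0.082 for Pfkp, from -0.10 to 0.040 for Pdha1, from -0.20 to 0.073 for G6pdx, from -0.28 to 0.040 for Pgd, from -0.22 to 0.17 for Slc2a1, from -0.11 to 0.056 for Hk1, from -0.034 to 0.17 for Hk2. They ran from -0.12 to 0.13 for Gpi1, from -0.16 to 0.22 for Pfkl, from -0.13 to 0.14 for Aldoa, from -0.024 to 0.21 for Pgk1, from -0.015 to 0.22 for Pgam1, from -0.067 to 0.25 for Eno1, from -0.038 to 0.20 for Pkm, from -0.068 to 0.20 for Rpia, from -0.072 to 0.14 for Tkt, from -0.020 to 0.14 for Pdhb and from -0.13 to 0.095 for Pgls. The genes that kept their sign also moved with single libraries left out: Slc2a3 (0.13 to 0.46), Pfkfb3 (-0.23 to -0.058), Tpi1 (0.030 to 0.44), Gapdh (0.088 to 0.32), Eno3 (0.35 to 0.80), Ldha (0.073 to 0.35), Ldhb (0.0028 to 0.23), Slc16a1 (0.069 to 0.25), Slc16a3 (0.39 to 0.75), Pdk1 (0.14 to 0.48), Pdk2 (-0.55 to -0.13), Pdk3 (0.063 to 0.16), Dlat (0.083 to 0.19), Taldo1 (0.063 to 0.24), Galk1 (0.30 to 0.51) and Pgm2 (0.024 to 0.18). The cause of these changes was not tested.

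Without length, Slc16a1 made up 72.4% of its pair in place of 58.7%, Pdk1 58.2% of the kinases in place of 36.5% and Pdk2 1.98% in place of 2.85%, since the division by length is the only difference. Whether equal replicate numbers mark pairs cannot be told here, because libraries of unequal numbers were not compared. The libraries' deviations from their group means correlated across genes at -0.261, 0.281 and 0.182 for numbers 1 to 3. With the replicate number as a block edgeR called 0 genes and 0 of the 37, and their median log2 fold change was 0.08. At an unadjusted p under 0.05 edgeR with the block had 3 of the 37, beside 4.95% of all genes, against 3.64% without the block. In the 37 genes the SE of the log2 fold change had a median of 0.16, which sets the size of difference that 3 libraries per group can show.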
